A study of Mus musculus with 8 samples.

Results

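The probes described here carry a gene symbol that begins with Il and a number, that is the interleukins, their receptors and the genes named after them. The array held 101 such probes for 72 genes, and 53 probes for 40 genes were kept because their detection p-value was under 0.05 on at least 2 of the 8 arrays, out of 15494 kept probes in all. By role the kept probes stood for 15 ligand genes (18 probes), 21 receptor genes (31 probes), 3 antagonist or decoy genes (3 probes) and 1 enzyme gene, Il4i1, which only shares the name.

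RNA came from hypothalamic blocks of male mice aged 12 to 15 weeks, with the strain given as mixed, and each sample was run on 1 Illumina bead array. The control group received saline (arrays 4 and 5). The second group had type 1 diabetes induced by streptozotocin (STZ), a toxin of pancreatic beta cells that was injected intraperitoneally (arrays 1, 2 and 3). The third group had the same STZ diabetes and a continuous central infusion of leptin, the adipocyte hormone that acts on the hypothalamus (arrays 6, 7 and 8). The labels name no saline control infused with leptin and no vehicle infusion. Nothing in them ties an array to 1 animal or to a pool, so every p-value reflects the scatter among these arrays, which may be technical. The description of STZ array 3 repeats the number of STZ array 1, while its title and source both say STZ, and its correlation was 0.979 and 0.988 with STZ arrays 1 and 2 and 0.957 and 0.962 with the saline arrays. With leptin arrays 6, 7 and 8 it was 0.969, 0.964 and 0.969. Such correlations did not sort every array by group, as STZ array 1 had 0.970 with saline array 4 and 0.969 with STZ array 2.

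Interleukins are secreted proteins by which immune cells, and in the brain also glia and some neurons, signal to each other. Each binds a receptor built from a private and often a shared chain, and the receptors pass the signal either through the adaptor Myd88 and the IRAK kinases to NF-kB (the interleukin 1 family), through Traf3ip2 (the interleukin 17 family), or through JAK kinases and STAT factors with SOCS proteins as brakes (most others). Interleukin 1 in the hypothalamus is known for its part in fever, loss of appetite and activation of the stress axis, and Il6st is the signal chain shared by interleukin 6, leukemia inhibitory factor and oncostatin M. All values below are normalized log2 intensities, and differences are log2 differences with the moderated standard error of limma. A probe is said to pass where its p-value, adjusted over all kept probes, is under 0.05.

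Most interleukin probes were dim. The mean log2 level was under 6 for 33 of the 53, while the median kept probe lay at 7.76, and 22 probes for 17 genes were detected on all 8 arrays. Between 13608 and 14776 probes were detected per array. Of 11 markers of the hypothalamus 8 were kept, Nr5a1 and Sim1 were undetected and Agrp had no probe. STZ array 2 held the pituitary hormones Gh at 14.98 and Prl at 14.93, where the other arrays lay between 4.36 and 6.71 for Gh and between 4.43 and 9.39 for Prl. The counts of interleukin probes, each named interleukin probe and the counts over the gene lists were therefore also computed without that array.

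**Figure D1:**
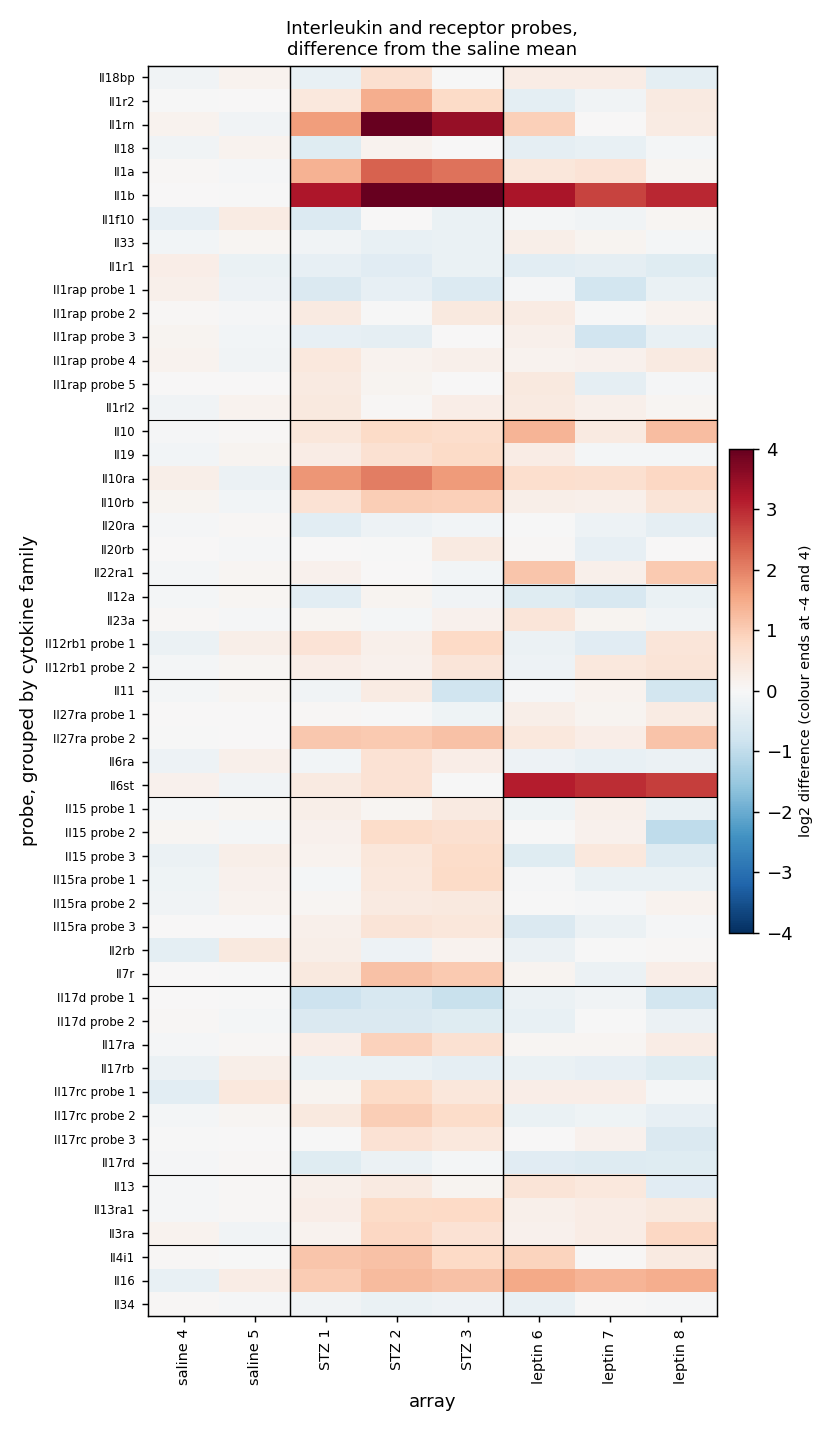
Each row is 1 of the 53 kept interleukin or receptor probes, grouped by cytokine family, and each column is 1 array; colour gives the log2 difference from the mean of the 2 saline arrays, with the colour scale ending at -4 and 4. Il1b, Il1rn, Il1a and Il10ra stand out on the STZ arrays, Il6st stands out on the arrays of STZ with leptin, and Il16 is above saline on all 6 arrays of both groups.

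Il1a and Il1b, the genes of the 2 classical interleukin 1 ligands, lie next to each other on chromosome 2 with their starts 61167 bases apart. Their promoters are shown because both probes changed in STZ. The sequences below are the 250 bases before each start, from RefSeq, mouse assembly GRCm38.p6, minus strand, with matches to TATAAA and to TGANTCA (the AP-1 motif) in capitals; both strands were searched.

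Il1a, chr2:129309973-129310222: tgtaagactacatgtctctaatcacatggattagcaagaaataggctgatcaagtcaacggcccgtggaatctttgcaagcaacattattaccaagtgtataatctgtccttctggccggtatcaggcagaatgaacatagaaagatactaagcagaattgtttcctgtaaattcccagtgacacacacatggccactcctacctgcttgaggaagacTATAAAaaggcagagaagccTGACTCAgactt

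Il1b, chr2:129371140-129371389: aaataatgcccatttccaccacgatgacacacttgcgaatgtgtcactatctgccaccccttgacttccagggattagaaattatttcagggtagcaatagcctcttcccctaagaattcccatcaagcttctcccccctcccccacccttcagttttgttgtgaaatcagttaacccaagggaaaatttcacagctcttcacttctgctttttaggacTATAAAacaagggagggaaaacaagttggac

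Both windows hold 1 TATAAA, at position -32 in Il1a and at -31 in Il1b, counted back from the start. The Il1a window also holds 1 TGANTCA at -12, and these letters are not in the Il1b window. Of 32851 RefSeq promoters with the same window, 12.4% hold TATAAA and 6.75% hold TGANTCA, on either strand. A match of letters is a description and no evidence that a factor binds.

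In STZ against saline (n = 3 and 2), 8 of the 53 probes passed in limma, all of them higher: Il1b, Il1rn, Il1a, Il10ra, Il16, 1 of 2 probes of Il27ra, Il4i1 and Il10rb. That is 15.1% of the interleukin probes, and 4.29% of all kept probes passed, 3.98% higher and 0.31% lower. No interleukin probe was lower in this test, and 15 were higher and 2 lower at an unadjusted p under 0.05, as were 7.87% and 6.5% of all kept probes. Il1b, Il1a, Il1rn and the Il27ra probe that passed were detected on no saline array, so the filter kept them through the other groups. Of the 16 interleukin probes detected at p under 0.01 on all 8 arrays, 4 were higher and 2 lower at that unadjusted p. The count of 8 fell to 2 and 3 without saline array 4 or 5 and to 5 and 4 without STZ array 2 or 3, and it was 10 without STZ array 1. The median difference of the 53 probes was 0.26 against -0.09 over all kept probes (0.16 and -0.09 with undetected probes at their bound). The STZ arrays lay wholly above the saline arrays for 20 interleukin probes and wholly below for 8, where 12.0% and 19.5% of all kept probes did so. Among the 20 were Il1b, Il1a, Il1rn, the Il27ra probe that passed, Il1r2, Il10, Il19, Il17ra and Il12rb1 probe ILMN_2799452. All of these were undetected in saline, so the filter kept them through the other groups, which bears on this count.

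Il1b, whose precursor is cleaved by caspase-1 into the secreted cytokine, had the largest difference of these probes. It lay at 4.65 and 4.61 on the saline arrays, at 7.86, 11.19 and 10.76 on the STZ arrays and at 7.89, 7.34 and 7.66 with leptin. Saline was undetected on both arrays, STZ arrays 2 and 3 were high, and STZ array 1 lay within the range of the leptin arrays. The rise in STZ was 5.31 ± 0.80 (adjusted p = 0.0052 in limma), at least 26.8-fold on the normalized group means. For such a fold an undetected group is set at the lowest value of a detected probe on each array, or at its own value if higher. Here and below, a fold given as at least allows for neither the spread between arrays nor other processing, and without background correction it can be smaller. With only saline array 4 or only saline array 5 left the adjusted p in limma was 0.056 or 0.058. The difference was 3.37 without background correction (adjusted p = 0.032 in limma) and 6.35 without STZ array 1 (3.5e-05).

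With leptin, Il1b differed from STZ by -2.31 ± 0.72 (adjusted p = 0.11 in limma), and the 2 groups overlapped through STZ array 1. Without that array the difference was -3.35 with an adjusted p in limma of 0.00014. Against saline the leptin arrays differed by 3.00 ± 0.80 (adjusted p = 0.13 in limma), at least 5.43-fold, with no overlap, and the adjusted p ran from 0.00029 without STZ array 1 to 0.54 without saline array 4.

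Il1a, which is active already as its precursor, lay at 4.59 and 4.48 in saline, at 5.94, 6.91 and 6.71 in STZ and at 4.98, 5.09 and 4.62 with leptin. It was detected on the 3 STZ arrays and on no other array. In STZ it rose by 1.98 ± 0.28 (adjusted p = 0.0032 in limma), at least 2.51-fold, and with leptin fell from STZ by 1.62 ± 0.25 (adjusted p = 0.0058 in limma), at least 2.49-fold. Both calls held in each of the 16 alternatives that tested the probe, with adjusted p of at most 0.044 and 0.037, and without background correction the differences were 0.82 and -0.65.

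**Figure D2:**
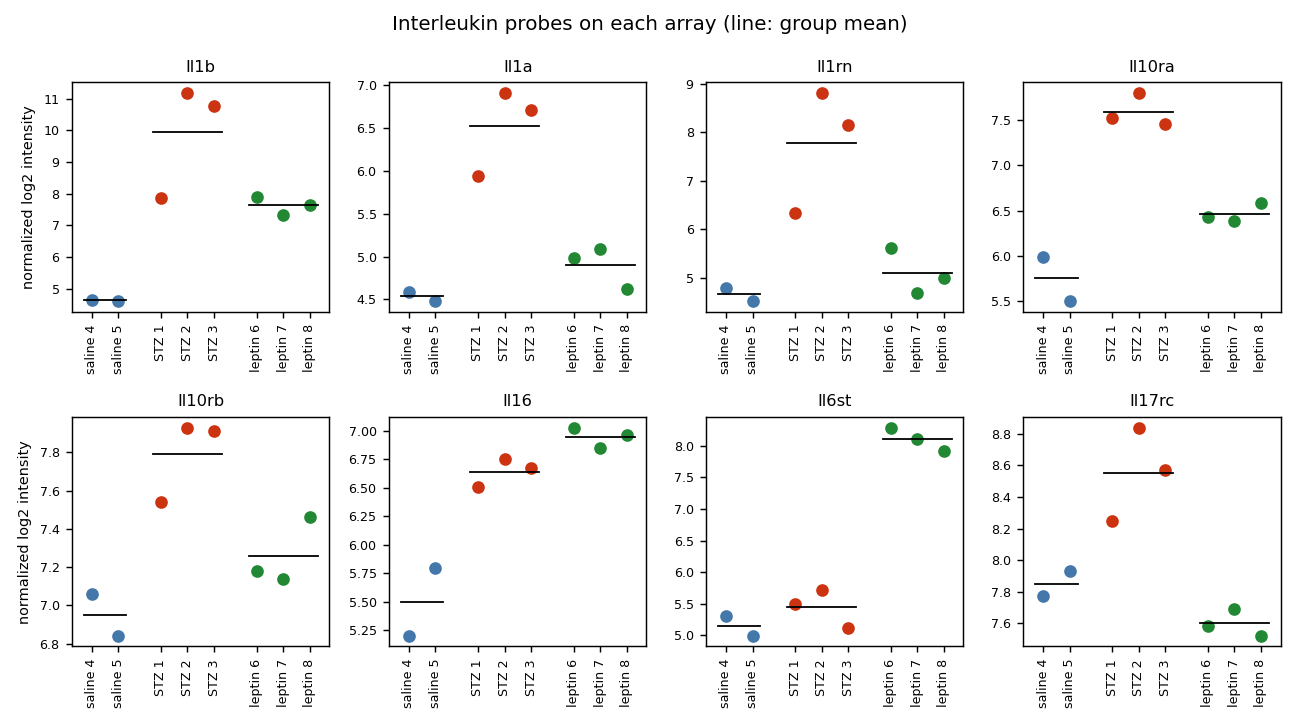
Normalized log2 intensity (vertical axis, each panel with its own range) of 8 interleukin probes on each array, with a line at the group mean; blue is saline, red is STZ and green is STZ with leptin. Il1a and Il1rn are high on the STZ arrays only, STZ array 1 is the lowest STZ array for Il1b, Il1a and Il1rn, Il16 is above saline on all STZ and leptin arrays, and Il6st lies between 7.92 and 8.29 with leptin and between 4.99 and 5.72 elsewhere. The Il17rc panel shows probe ILMN_2785350.

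Il1rn, the secreted antagonist that occupies the interleukin 1 receptor without signalling, lay at 4.80 and 4.52 in saline, at 6.34, 8.81 and 8.15 in STZ and at 5.62, 4.69 and 4.99 with leptin. The STZ arrays lay above all the others. Il1rn rose in STZ by 3.11 ± 0.60 (adjusted p = 0.021 in limma), at least 5.96-fold, and with leptin it fell from STZ by 2.67 ± 0.54 (adjusted p = 0.023 in limma). It was detected on 1 of the 3 leptin arrays, so the leptin mean is in part set by undetected values and no fold is given. Without background correction the differences were 1.58 and -1.40. Leptin and saline differed by 0.44 ± 0.60 (adjusted p = 0.85). The call in STZ was lost without saline array 4 or 5 or STZ array 3 (adjusted p in limma of 0.13, 0.17 and 0.093), without background correction (0.067) or the filter on detection (0.053), in the fit that blocks on the replicate number (0.11) and on the authors' processed values (0.053). The call with leptin was lost without STZ array 2 or 3 or leptin array 7 or 8 (0.06, 0.1, 0.08 and 0.059), without a detection filter (0.051) and with the block (0.074). The other 2 probes of Il1rn were not kept.

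Il1r2, a decoy receptor that binds interleukin 1 without signalling, lay at 5.06 and 5.09 in saline, at 5.50, 6.53 and 5.86 in STZ and at 4.69, 4.95 and 5.45 with leptin. The STZ arrays again lay above all the others, and saline was undetected. The differences of 0.89 ± 0.31 from saline and of -0.94 ± 0.27 with leptin from STZ did not pass in limma (adjusted p = 0.21 and 0.094; 0.042 and 0.027 with the replicate block). Il18bp, which neutralizes interleukin 18, ranged over all arrays from 5.84 to 6.85 with no comparison that passed.

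The receptor side of the interleukin 1 family did not pass in any comparison. Il1r1, the signalling receptor of interleukin 1, lay at 5.75 and 5.19 in saline and between 4.99 and 5.21 on the other arrays. Its partner chain Il1rap had 5 kept probes, whose differences between STZ and saline ran from -0.49 to 0.24, below 0 on 2 of them and above 0 on 3. Il1rl2, a receptor chain for interleukin 36, ranged from 4.97 to 5.48.

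Markers of other cells moved beside the interleukin 1 genes. Of 12 listed markers of neutrophils and monocytes 7 were kept, with a summed linear level of 1580 to 1650 in saline, 2010 to 11900 in STZ and 1900 to 2700 with leptin, and Ngp, Mmp8 and Ccr2 were undetected. Of the 7, 2 passed as higher in STZ in limma and 0 as lower (6 and 0 at an unadjusted p under 0.05), at a median of 1.56 (1.37 with undetected genes at their bound). With leptin 1 was lower than in STZ and 0 higher (6 and 0 unadjusted), at a median of -1.58. Without STZ array 2, 2 passed as higher in STZ and the call with leptin, that of Csf3r, was lost (adjusted p = 0.058 in limma), and the medians were 1.27 and -0.82. The 2 were Csf3r, the receptor of the growth factor for granulocytes, and Plac8, which rose by 4.74 ± 0.81 (adjusted p = 0.01 in limma), at least 21.2-fold, both named after their values were seen. S100a8, an alarmin of neutrophils named in the same way, lay at 5.91, 11.93 and 9.66 on STZ arrays 1, 2 and 3. It was undetected in saline, and its difference from saline of 4.57 ± 1.32 did not pass (adjusted p = 0.12 in limma). On the group means that is at least 15.7-fold, a fold set by STZ arrays 2 and 3 and not reached on array 1. Of 14 listed markers of microglia and macrophages 10 were kept, with sums of 3300 to 3530 in saline, 7770 to 9940 in STZ and 5270 to 5830 with leptin.

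Lists of tissue next to the hypothalamus and of blood varied between arrays of 1 group. The 7 kept markers of the choroid plexus summed to 15200 and 31400 in saline, to 1810, 32000 and 32100 on STZ arrays 1, 2 and 3, and to 1980 to 5250 with leptin. STZ array 1, the lowest STZ array for Il1b, Il1a and Il1rn, was thus also the lowest STZ array for these markers. The 4 kept markers of red blood cells summed to 10300 and 15600 in saline, to 6600, 37500 and 12600 on STZ arrays 1, 2 and 3, and to 12200 to 19600 with leptin. The part of these markers in the interleukin values was not tested, and in such bulk RNA more cells of a type and more RNA per cell cannot be told apart.

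The 2 chains of the interleukin 10 receptor were both higher in STZ. Il10ra, the chain that binds interleukin 10 and is carried by myeloid cells and lymphocytes, lay at 5.99 and 5.50 in saline, at 7.52, 7.80 and 7.46 in STZ and at 6.43, 6.38 and 6.58 with leptin. The 3 groups did not overlap, with leptin between the other two. Il10ra rose in STZ by 1.84 ± 0.19 (adjusted p = 0.00052 in limma), a fold of 3.59, and with leptin fell from STZ by 1.13 ± 0.17 (adjusted p = 0.005). The remaining difference between leptin and saline, 0.71 ± 0.19, did not pass (adjusted p = 0.12). Both calls held in each of the 16 alternatives that tested the probe, with an adjusted p in limma of at most 0.0087 and 0.026, and without background correction the differences were 0.97 and -0.66.

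Il10rb, the chain shared with the receptors of interleukin 22 and of the type III interferons, lay at 7.06 and 6.84 in saline, at 7.54, 7.93 and 7.91 in STZ and at 7.18, 7.14 and 7.46 with leptin. Il10rb rose in STZ by 0.84 ± 0.18 (adjusted p = 0.032 in limma), a fold of 1.80, and 0.54 without background correction. With leptin it differed from STZ by -0.53 ± 0.16 (adjusted p = 0.10) without overlap. The call in STZ was lost without saline array 4 or 5, STZ array 2 or 3 or leptin array 6 (adjusted p in limma of 0.14, 0.29, 0.1, 0.12 and 0.057), with only the groups compared (0.068) and with the replicate block (0.14).

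The ligand Il10, an anti-inflammatory cytokine, was undetected in saline at 4.47 and 4.55, lay at 4.96, 5.26 and 5.20 in STZ and at 5.87, 4.88 and 5.74 with leptin. Leptin arrays 6 and 8 were the highest, and the leptin and STZ groups overlapped. Its difference between leptin and saline, 0.99 ± 0.27 and at least 1.24-fold, did not pass in limma (adjusted p = 0.15, and 0.0071 without leptin array 7). Il22ra1, the private chain of the interleukin 22 receptor, was undetected on the saline arrays (4.73 and 4.89) and on the STZ arrays (4.97, 4.84 and 4.71). It lay at 5.92, 5.01 and 5.85 with leptin, high on the same arrays 6 and 8, and its differences with leptin of 0.75 ± 0.23 from STZ and 0.78 ± 0.26 from saline did not pass (adjusted p = 0.11 and 0.25; 0.009 and 0.015 without leptin array 7). Il19, Il20ra and Il20rb, of the same family, ranged from 4.54 to 6.02 over all arrays and passed in no comparison.

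Il16 was the 1 ligand that passed against saline both in STZ and with leptin. It encodes a precursor whose secreted fragment attracts cells that carry CD4. Il16 lay at 5.20 and 5.80 in saline, at 6.51, 6.75 and 6.67 in STZ and at 7.03, 6.85 and 6.96 with leptin, and the 6 arrays of both STZ groups all lay above saline. It rose in STZ by 1.14 ± 0.19 (adjusted p = 0.0089 in limma), a fold of 2.21, and leptin lay 1.45 ± 0.19 above saline (adjusted p = 0.0044), a fold of 2.73. Between leptin and STZ the difference was 0.30 ± 0.17 (adjusted p = 0.38). Without saline array 4, the lower of the pair, both calls were lost (0.84 with an adjusted p in limma of 0.1, and 1.15 with 0.051). Without background correction both were kept at 0.48 and 0.65 (0.025 and 0.011), and with the replicate block the call in STZ was lost (0.052).

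Lymphocyte markers are given beside Il16 because of its known target cells. Of 12 listed markers of T and NK cells 8 were kept, with Cd4 and Cd8a undetected. In STZ 2 of the 8 were higher than saline, Cd3e by 0.91 ± 0.21 and Cd8b1, undetected in saline, by 1.54 ± 0.34 or at least 2.01-fold (adjusted p = 0.043 and 0.039 in limma). Without STZ array 2 neither passed (0.11 and 0.12), 7 of the 8 being higher at an unadjusted p under 0.05 with all arrays. With leptin the differences of the 8 from saline ran from -0.10 to 1.47 and did not pass. The summed level of the list was set by Thy1, which neurons also express, at 17700 to 18900 in saline, 15500 to 16300 in STZ and 16900 to 17600 with leptin. Of 5 listed B cell markers 2 were kept, with Ms4a1 and Pax5 undetected, at sums of 49.6 to 58.0 in saline, 113 to 119 in STZ and 116 to 182 with leptin. The part of lymphocytes in the level of Il16 was not tested.

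Il6st was the interleukin receptor probe with the largest change with leptin, and the only one of the 53 that passed as higher with leptin than in STZ. Its protein, gp130, carries the signal of the interleukin 6 family into JAK and STAT3. The probe lay at 5.30 and 4.99 in saline, at 5.49, 5.72 and 5.11 in STZ and at 8.29, 8.10 and 7.92 with leptin, so that the leptin arrays stood well apart while STZ and saline overlapped. With leptin it rose by 2.66 ± 0.19 over STZ (adjusted p = 8.5e-05 in limma), a fold of 6.32, and lay 2.96 ± 0.21 above saline (adjusted p = 0.00012), where it was detected on 1 of 2 arrays. Both calls held in each of the 16 alternatives that tested the probe, and without background correction the differences were 1.44 and 1.54. STZ and saline differed by 0.30 ± 0.21 (adjusted p = 0.58).

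This pattern was shared by a set of other probes. Il6st was 1 of 113 kept probes that lay within 0.5 log2 between STZ and saline and passed by over 1 log2 both against STZ and against saline with leptin, 93 of them higher with leptin and the remainder lower. Csrp1, an actin-binding protein named here after its values were seen, lay at 6.58 on average in saline, 6.45 in STZ and 12.47 with leptin. P2ry12, a receptor of microglia named in the same way, lay at 10.30, 10.17 and 7.85. Eif2s3y, a Y chromosome gene named likewise, lay at 4.45 and 4.56 in saline and at 4.48, 4.53 and 4.46 in STZ. With leptin Eif2s3y lay at 8.22, 9.01 and 9.04, although the mice are described as male. No probe named for the Y chromosome genes Ddx3y, Kdm5d or Uty or for the X chromosome gene Xist was among the 113. The levels of those genes are not given here. Whether sex or genetic background differed between the groups was not tested. The infusion and anything else particular to the 3 leptin arrays cannot be told apart, and the strain is labelled mixed in every group. Il6st is represented by 1 probe, so no second probe bears on its level.

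Other members of the interleukin 6 and 27 receptors moved little or on 1 probe only. Il6ra, the private chain of the interleukin 6 receptor, ranged from 4.66 to 5.56 and passed in no comparison, as did Il11, which ranged from 4.83 to 5.94. Il27ra, which pairs with gp130 to bind interleukin 27, had 2 kept probes that disagreed. Its probe ILMN_3002095 lay at 4.59 and 4.64 in saline, at 5.71, 5.67 and 5.79 in STZ and at 5.05, 4.88 and 5.77 with leptin. This probe rose in STZ by 1.11 ± 0.24 (adjusted p = 0.034 in limma), at least 1.45-fold (0.41 without background correction), and leptin array 8 lay among the STZ arrays.

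Its probe ILMN_2591156 lay at 5.16 and 5.15 in saline, at 5.19, 5.13 and 4.97 in STZ and at 5.39, 5.26 and 5.47 with leptin. Its difference between STZ and saline was -0.06 ± 0.14 (adjusted p = 0.90 in limma; 0.03 by cyclic loess). The rise of the first Il27ra probe was lost in 10 of 16 alternatives, with adjusted p between 0.051 and 0.24: without any one of the saline or STZ arrays or leptin array 6, without background correction or a detection filter, with the replicate block and on the authors' processed values.

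Il4i1 is an enzyme of myeloid cells and B cells that oxidizes aromatic amino acids, named for its induction by interleukin 4. It lay at 5.88 and 5.81 in saline, at 6.95, 7.01 and 6.64 in STZ and at 6.73, 5.90 and 6.21 with leptin. It rose in STZ by 1.02 ± 0.24 (adjusted p = 0.046 in limma), a fold of 2.03 (0.48 on the log2 scale without background correction), and leptin array 6 lay among the STZ arrays. The call was lost in 10 of 17 alternatives (adjusted p from 0.071 to 0.35): without any one of the saline or STZ arrays or leptin array 8, without background correction or a detection filter, with the replicate block and on the authors' processed values.

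When leptin was infused in STZ mice (n = 3, against 3 STZ arrays), 6 of the 53 probes passed in limma. Il6st was higher, and Il1a, Il1rn, Il10ra, 1 of 3 probes of Il17rc and 1 of 3 probes of Il15ra were lower. That is 11.3% of the interleukin probes, 9.43% lower, where 5.62% of all kept probes passed, 2.16% higher and 3.45% lower. At an unadjusted p under 0.05, 5 interleukin probes were higher and 18 lower, as were 9.3% and 10.1% of all kept probes. Il1a, Il19, Il17ra, Il6ra, Il20rb and Il15ra probe ILMN_1227502 were detected on STZ arrays only, so the filter kept them through that group. Of the 16 interleukin probes detected at p under 0.01 on all 8 arrays, 3 were higher and 4 lower at that unadjusted p. The median difference of the 53 probes was -0.18 against 0.03 over all kept probes (-0.06 and 0.02 with undetected probes at their bound). The leptin arrays lay wholly below the STZ arrays for 10 interleukin probes and wholly above for 6, where 11.1% and 12.0% of all kept probes did so. Without STZ array 1, the STZ array nearest the leptin group for Il1b, 13 interleukin probes passed, 12 of them lower, and 4 passed without STZ array 2. Il1a, Il1rn and Il10ra were the 3 probes that passed upward in STZ and downward with leptin; the 2 comparisons share the STZ arrays.

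Il17rc, which forms the receptor of interleukins 17A and 17F together with Il17ra, fell with leptin on 1 of its 3 probes. ILMN_2785350 lay at 7.77 and 7.93 in saline, at 8.25, 8.84 and 8.57 in STZ and at 7.58, 7.69 and 7.52 with leptin. It fell from STZ by 0.96 ± 0.16 (adjusted p = 0.01 in limma), a fold of 1.94, and the call held in each of 17 alternatives. Its difference between STZ and saline, 0.70 ± 0.18, did not pass (adjusted p = 0.079).

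The other 2 Il17rc probes were dimmer and did not pass. ILMN_2695344 lay at 5.91 and 6.74 in saline, at 6.42, 7.07 and 6.78 in STZ and at 6.57, 6.57 and 6.25 with leptin, and ILMN_2785353 lay at 6.63 and 6.64, at 6.61, 7.21 and 7.07 and at 6.66, 6.81 and 6.06. Their differences with leptin from STZ, -0.29 ± 0.24 and -0.46 ± 0.23, had the same sign as that of the probe that passed (adjusted p = 0.56 and 0.31 in limma).

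The ligand Il17d had the lowest difference of the interleukin probes between STZ and saline. Its probe ILMN_2691606 lay at 6.73 and 6.71 in saline, at 5.89, 6.09 and 5.82 in STZ and at 6.49, 6.59 and 5.99 with leptin. The difference of -0.78 ± 0.19 did not pass (adjusted p = 0.065 in limma), and it passed with array weights (0.008) and without leptin array 8 (0.023). The second Il17d probe, ILMN_2792502, lay at 9.45 and 9.32 in saline, at 8.80, 8.82 and 8.89 in STZ and at 9.10, 9.38 and 9.15 with leptin, and it differed by -0.55 ± 0.14 (adjusted p = 0.08). On both probes all STZ arrays lay below both saline arrays. Il17ra, Il17rb and Il17rd passed in no comparison, with differences between STZ and saline of 0.59, -0.29 and -0.27. Il17ra was undetected in saline and with leptin, and its difference between STZ and saline is bounded only at 1.04-fold.

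Il15ra presents interleukin 15 to neighbouring cells. Its probe ILMN_1249759 lay at 6.17 on both saline arrays, at 6.38, 6.67 and 6.63 in STZ and at 5.59, 5.95 and 6.12 with leptin. It fell with leptin from STZ by 0.67 ± 0.16 (adjusted p = 0.047 in limma; -0.30 without background correction), and the call was lost in 11 of 16 alternatives, with adjusted p between 0.056 and 0.15. Those were the settings without STZ array 2 or 3, without leptin array 6 or 7, without either saline array, without background correction or a detection filter, with the fit limited to the groups compared, with the replicate block and on the authors' processed values.

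Its probe ILMN_1220603 lay at 5.06 and 5.41 in saline, at 5.17, 5.67 and 6.02 in STZ and at 5.18, 4.97 and 4.98 with leptin, a difference with leptin from STZ of -0.57 ± 0.21 (adjusted p = 0.18 in limma). ILMN_1227502 lay at 4.59 and 4.88, at 4.82, 5.10 and 5.14 and at 4.71, 4.69 and 4.89, a difference of -0.26 ± 0.15 (adjusted p = 0.37). The 3 Il15ra probes thus had the same sign, and 2 of them were undetected on all leptin arrays. The ligand Il15, a growth factor of NK and memory T cells, had 3 kept probes with differences of -0.81, -0.63 and -0.29 with leptin from STZ, none of which passed.

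Il7r, the receptor chain for interleukin 7 on lymphocytes, lay at 5.57 and 5.51 in saline, at 5.92, 6.70 and 6.58 in STZ and at 5.66, 5.30 and 5.81 with leptin. The STZ arrays lay above all the others. Its differences of 0.86 ± 0.25 in STZ from saline and of -0.81 ± 0.22 with leptin from STZ did not pass in limma (adjusted p = 0.12 and 0.074), and both passed without STZ array 1 (1.10 and -1.05, adjusted p = 0.011 and 0.0094). Il2rb, a chain of the interleukin 2 and 15 receptors, ranged from 4.58 to 5.37 and passed in no comparison.

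In STZ with leptin against saline (n = 3 and 2), 2 of the 53 probes passed in limma, Il6st and Il16, both higher. That is 3.77% of the interleukin probes, and 2.03% of all kept probes passed, 1.62% higher and 0.407% lower. No interleukin probe was lower in this test, and 7 were higher and 3 lower at an unadjusted p under 0.05, where 5.82% and 6.05% of all kept probes were. Without saline array 4 the count was 1, and without leptin array 7 it was 4. The median difference of the 53 probes was 0.02 against -0.04 over all kept probes. The leptin arrays lay wholly above the saline arrays for 15 interleukin probes and wholly below for 7, where 13.9% and 20.2% of all kept probes did so. Of the 15, Il1a and Il17ra were undetected in both groups. Il1b, Il10, Il22ra1, Il3ra and both Il27ra probes were undetected in saline, and Il22ra1 was kept through leptin arrays 6 and 8 alone. Of the 7, Il1r1, Il12a and Il17rd were undetected with leptin.

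**Figure D3:**
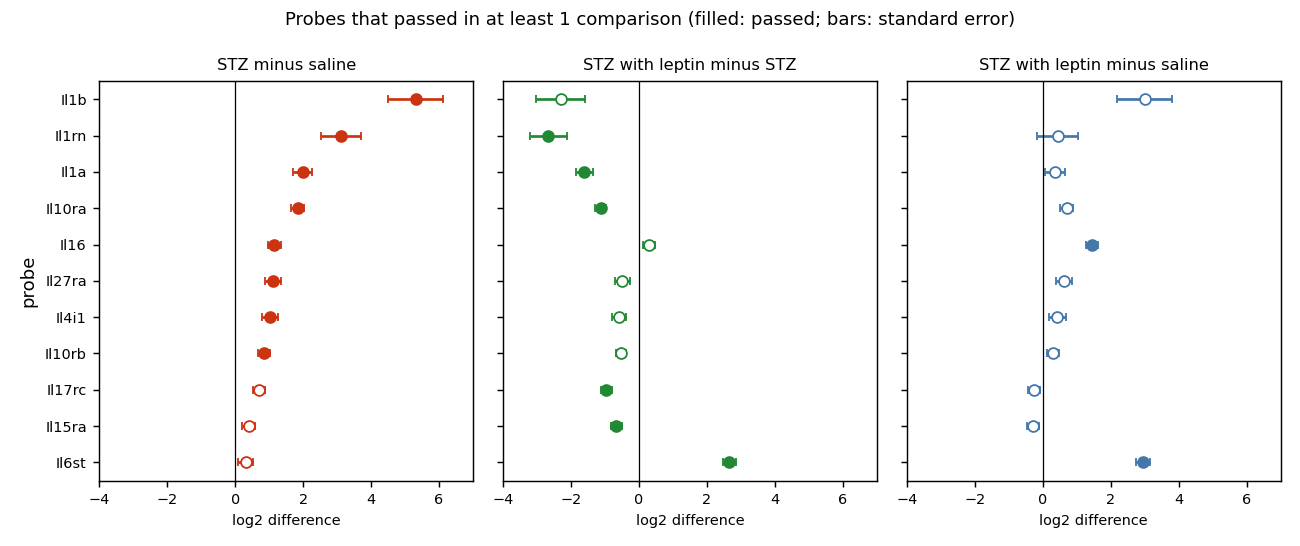
Log2 difference (horizontal axis) of the 11 interleukin probes that passed in at least 1 comparison, with the 3 panels giving STZ against saline, leptin against STZ, and leptin against saline; points are the fitted differences, bars are 1 standard error, and filled points passed in limma. In the first panel 8 probes are filled, in the second 6 and in the third Il16 and Il6st only.

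Il33, Il18 and Il34, set side by side here after their values were seen, passed in no comparison. Il33, a nuclear alarmin of astrocytes and oligodendrocytes, lay at 10.49 and 10.68 in saline, at 10.45, 10.30 and 10.31 in STZ and at 10.82, 10.71 and 10.50 with leptin, and it differed by -0.23 ± 0.15 in STZ from saline (adjusted p = 0.55 in limma). Il18, a cytokine matured by caspase-1 as Il1b is, lay at 9.84 and 10.11 in saline, at 9.48, 10.10 and 9.97 in STZ and at 9.61, 9.66 and 9.90 with leptin. Its difference of -0.12 ± 0.21 in STZ from saline lay within the spread between arrays. Il34, a neuronal ligand of the receptor that maintains microglia, ranged from 7.60 to 7.93 over the 8 arrays.

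The remaining members passed in no comparison. Il13ra1, a receptor chain of interleukins 4 and 13, lay at 7.43 and 7.54 in saline and at 7.77, 8.26 and 8.29 in STZ, with no overlap and a difference of 0.62 ± 0.18 (adjusted p = 0.13 in limma). Il3ra, undetected in saline, differed by 0.52 ± 0.26 (at least 1.25-fold) and Il13 by 0.21 ± 0.26 in the same comparison. The ligands Il12a, Il23a and Il1f10 and the receptor Il12rb1, with 2 probes, had differences between -0.27 and 0.53.

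The 48 interleukin probes that were not kept included those of 32 genes with no kept probe. Of these probes 39 were detected on no array and 9 on 1 array. Il6, the cytokine that signals through Il6st, was detected on STZ array 2 alone, and Il2ra on STZ array 1 alone. Il4, Il17a, Il27, Il9 and Il21 were detected on no array. An undetected probe bounds a level on this array and does not show that the gene is silent.

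Genes that act together with the interleukins but do not share the name were read from lists of receptor partners, JAK, STAT and SOCS genes, interleukin 1 and 18 signalling and maturation, and interleukin 17 signalling. Among the genes of interleukin 1 and 18 signalling and maturation 16 of 19 were kept, and 7 of them passed as higher in STZ than in saline in limma and 0 as lower (10 and 0 at an unadjusted p under 0.05), at a median of 0.94 against -0.09 over all kept probes. With leptin 5 of the 16 were lower than STZ and 0 higher (9 and 1 unadjusted), and 4 were higher than saline. Without STZ array 2 these counts were 7, 5 and 3, with Casp1 against saline lost (adjusted p = 0.066 in limma). Nlrp3, a sensor of the inflammasome, was undetected.

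Casp1, the protease that matures Il1b and Il18, lay at 7.34 and 7.28 in saline, at 10.22, 10.65 and 10.82 in STZ and at 8.56, 8.14 and 8.90 with leptin. Casp1 rose in STZ by 3.25 ± 0.25 (adjusted p = 0.00013 in limma) and with leptin fell from STZ by 2.03 ± 0.22 (adjusted p = 0.001). Gsdmd, the pore protein through which mature Il1b leaves the cell, rose by 2.80 ± 0.20 (adjusted p = 9.5e-05) and fell with leptin by 1.63 ± 0.18 (adjusted p = 0.0011). For Casp1 and Gsdmd all 3 groups stood apart without overlap.

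Casp4, a caspase that senses bacterial lipopolysaccharide, was undetected in saline at 4.82 and 4.67 and lay at 8.02, 8.88 and 8.73 in STZ. With leptin it lay at 4.39, 4.47 and 6.15, detected on array 8 alone. It rose in STZ by 3.80 ± 0.49 (adjusted p = 0.002 in limma), at least 10.2-fold on the normalized means, and fell with leptin by 3.54 ± 0.44 (adjusted p = 0.002). Over the 16 alternatives that tested Casp4 these log2 differences ran from 2.04 to 4.53 and from -4.11 to -2.0. Myd88, the adaptor of the interleukin 1 receptor, rose by 1.95 ± 0.20 (adjusted p = 0.0005) and fell by 1.26 ± 0.17 (adjusted p = 0.0036).

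Irak3, an inhibitory member of the IRAK family, rose in STZ by 2.43 ± 0.27 (adjusted p = 0.00088 in limma) and differed with leptin from STZ by -0.89 ± 0.24 (adjusted p = 0.074). Nfkbiz and Pycard, which completed the 7 and are named after their values were seen, rose by 2.54 ± 0.31 and 1.56 ± 0.24 (adjusted p = 0.0015 and 0.006). Pycard, the adaptor of the inflammasome, fell with leptin by 1.24 ± 0.22 (adjusted p = 0.012). The 4 that were higher with leptin than in saline were Irak3, Nfkbiz, Casp1 and Gsdmd (by 1.55, 1.89, 1.22 and 1.17, adjusted p = 0.021, 0.015, 0.041 and 0.019 in limma). Those of Casp1, Gsdmd and Irak3 were lost without either saline array, without leptin array 6 or 8, without background correction, with the replicate block and on the authors' values.

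**Figure D4:**
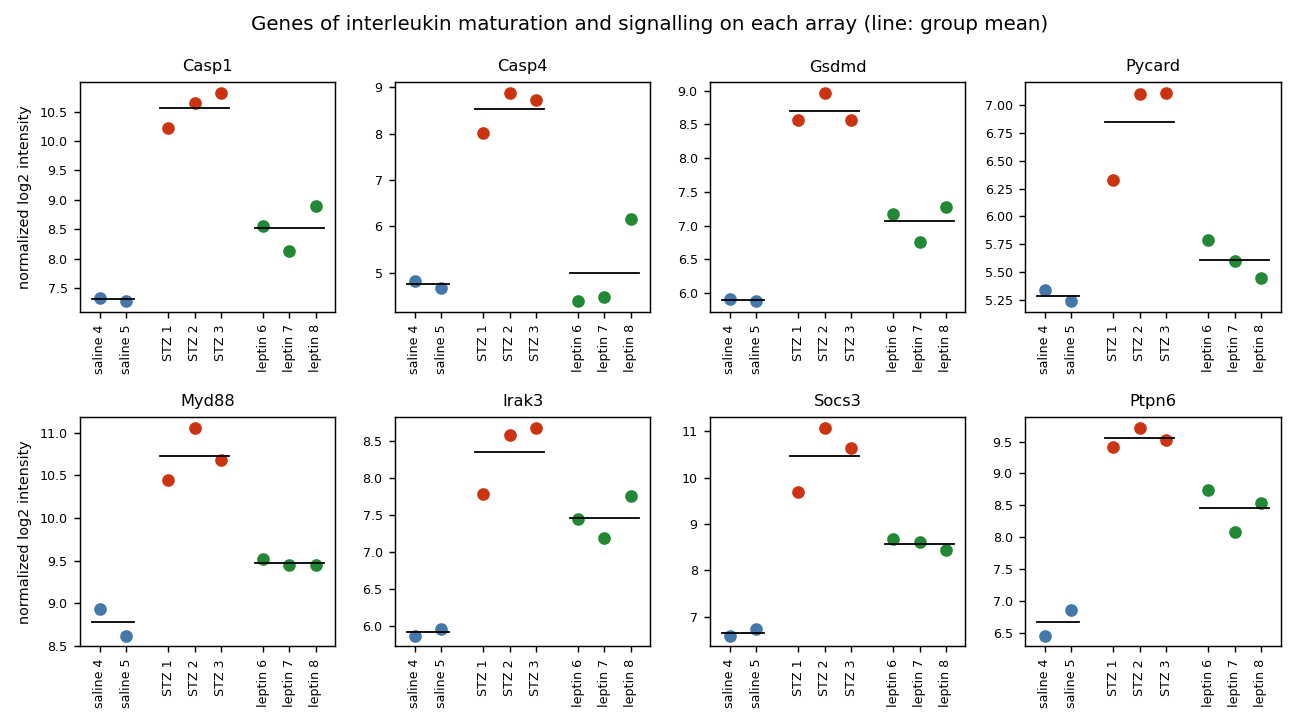
Normalized log2 intensity (vertical axis, each panel with its own range) of 8 genes of interleukin maturation and signalling on each array, with a line at the group mean; blue is saline, red is STZ and green is STZ with leptin. In each panel the STZ arrays lie above both saline arrays and above all leptin arrays; Casp4 with leptin is near saline except on array 8, and Socs3, Ptpn6 and Irak3 with leptin lie between the other groups.

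Of 25 listed JAK, STAT and SOCS genes 22 were kept, and 5 passed as higher in STZ in limma and 0 as lower (8 and 0 at an unadjusted p under 0.05), at a median of 0.36 (0.24 with undetected genes at their bound). Socs3, a STAT3-induced inhibitor of gp130 and leptin receptor signals, lay at 6.59 and 6.74 in saline, at 9.68, 11.08 and 10.64 in STZ and at 8.68, 8.62 and 8.43 with leptin. It rose by 3.80 ± 0.34 (adjusted p = 0.00026 in limma), fell with leptin by 1.89 ± 0.30 (adjusted p = 0.0079) and stayed 1.91 ± 0.34 above saline (adjusted p = 0.022, and 0.22 and 0.16 without saline array 4 or 5).

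Ptpn6, a phosphatase of blood cells that dampens cytokine receptors, rose in STZ by 2.90 ± 0.22 (adjusted p = 0.00013 in limma) and fell with leptin by 1.11 ± 0.20 (adjusted p = 0.013; 0.052 and 0.054 without STZ array 2 or 3). Named after their values were seen, Stat2, Stat3 and Stat4 completed the 5 and rose by 1.25 ± 0.23, 1.08 ± 0.22 and 1.01 ± 0.21 (adjusted p = 0.017, 0.028 and 0.029). Stat4 was undetected in saline and with leptin, and its rise was at least 1.52-fold. With leptin 6 genes of the list were lower than in STZ and 0 higher (10 and 0 unadjusted), with Jak3, Tyk2, Stat2 and Stat4 beside Socs3 and Ptpn6. Without STZ array 2 the list had 3 higher in STZ, with Stat3 and Stat4 lost (adjusted p = 0.075 and 0.091 in limma), and 2 lower with leptin, Socs3 and Stat2.

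Of 24 listed receptor partners 16 were kept, and 5 passed as higher in STZ in limma and 0 as lower (10 and 1 at an unadjusted p under 0.05), at a median of 0.54 (0.51 with undetected genes at their bound). Named after their values were seen, they were Ebi3, a subunit of interleukin 27, by 2.17 ± 0.32 (adjusted p = 0.0043 in limma), Osmr, the oncostatin M receptor chain that pairs with gp130, by 1.66 ± 0.39 (adjusted p = 0.047), and the growth factor receptor chains Csf3r and Csf2ra by 1.37 and 0.82. The fifth, Csf2rb2, was undetected in saline and with leptin and rose by at least 1.52-fold. With leptin Csf2ra, Csf2rb2 and Csf3r were lower than in STZ, and Ebi3 stayed 1.90 ± 0.32 above saline (adjusted p = 0.016). Without STZ array 2 the counts were 4 higher in STZ, with Osmr lost (1.30, adjusted p = 0.088 in limma), and 1 lower with leptin, Csf2rb2. Lifr and Cntfr, other partners of gp130, passed in no comparison. Of 5 listed genes of interleukin 17 signalling 3 were kept, and Cebpb, a transcription factor named in the same way, rose in STZ by 2.05 ± 0.33 (adjusted p = 0.0079) and fell with leptin by 1.47 ± 0.30 (adjusted p = 0.023; 0.066 without STZ array 2).

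Microglial markers moved with these genes in part. Of the 10 kept, Aif1, Tmem119, C1qa and Adgre1 passed as higher in STZ than in saline, by 2.85, 1.30, 2.28 and 3.95, and 0 as lower in limma (8 and 0 at an unadjusted p under 0.05), and the list had a median of 1.13 (1.06 with undetected genes at their bound). Between leptin and STZ 2 markers passed downward, Tmem119 and P2ry12, and 0 upward in limma (7 and 0 unadjusted), at a median of -0.57. Against saline 3 passed upward and 1, P2ry12, downward with leptin, at a median of 0.44. P2ry12 is 1 of the 113 probes described above that lay apart on the leptin arrays only. Without STZ array 2 the list again had 4 higher in STZ, 2 lower with leptin than in STZ, and 3 higher and 1 lower with leptin than in saline. Adgre1, the F4/80 antigen of macrophages, differed with leptin from STZ by -0.37 ± 0.18 (adjusted p = 0.31 in limma) and stayed 3.58 ± 0.21 above saline (adjusted p = 3.6e-05). These genes were named after their values were seen, and their part in the interleukin values was not tested.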

How the data were processed

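The deposited raw table holds linear bead-summary intensity values, not normalized, each with a detection p-value, per the file headers. The authors' processed table holds log2 values with a median of 6.9 in every column; no source used here names its software, and it served as an alternative. Normalization used limma 3.58.1 (R 4.3.3) and its function neqc (offset 16, negative controls inferred from the detection p-values, quantile normalization, log2). The filter, detected at 0.05 on 2 arrays or more, left 15494 of 25697 probes, and lmFit and eBayes fitted 3 group means to all 8 arrays, with Benjamini-Hochberg adjustment over the kept probes. The fit was tested on simulated data. The number of arrays limits the precision.

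The deposited probe annotation gave 1 symbol to 23978 probes and none to 1719, and chromosomes and promoters came from RefSeq, assembly GRCm38.p6. Probes of a gene were kept separate; in partner and marker lists a gene stands for its brightest kept probe. Members and lists were chosen with earlier results of these data known. Named with the value on each array were interleukin probes that passed, other probes of those genes, and the 3 largest differences per comparison that did not pass; of the partner lists, up to 6 genes with the lowest p in STZ against saline and up to 4 with leptin against STZ. Alternatives covered background correction, normalization, the detection filter, array weights, the samples fitted, a replicate block, the authors' values and leaving out each array. Slide and scan were not given in the sources used here.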

Additional observations from a re-analysis of the deposited data

How the results depend on the processing

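All 53 interleukin probes rest on 8 arrays, 2 of them saline, and most are dim, so calls near the threshold moved. Without a saline array the one left was assumed to vary like the other groups. Of 84 results for single probes under 1380 alternatives, 1239 kept direction and side of the threshold, 93 no longer passed, 32 newly passed and 16 changed sign, passing in neither fit; causes were not tested. In STZ against saline 664 probes passed, 1659 with array weights, 332 with detection on all 8 arrays (p under 0.01) and 336 with the replicate block; leaving out 1 array gave 281 (without saline 4) to 1025 (without STZ 1), with 317 without saline 5 and 424 without STZ 3. Of the interleukin probes 8 passed there, and 16, 2, 4 and, without a detection filter, 5; leaving out 1 array gave 2 (without saline 4) to 10 (without STZ 1), with 3 without saline 5, 4 without STZ 3 and 5 without STZ 2. In leptin against STZ 870 passed, 1859 with weights, 552 under the strict filter, 474 with the block, and 483 (without STZ 3) to 1216 (without STZ 1) leaving out 1 array, with 542 without STZ 2, 568 without leptin 6 and 531 without leptin 7. Of the interleukin probes 6 passed there, 16 with weights, 1 under the strict filter and 4 to 13 leaving out 1 array, 13 without STZ 1. In leptin against saline 314 passed, 714 with weights, 183 under the strict filter and 108 to 416 leaving out 1 array, 108 without saline 4 and 129 without saline 5. Of the interleukin probes 2 passed there, 1 without saline 4 and 4 without leptin 7, and 0 in limma under the strict filter, which left 16 probes without Il6st and Il16, 0 of them at an unadjusted p under 0.05. The median of all tested probes in STZ against saline was -0.09, -0.19 by median centring and -0.01 by cyclic loess.

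Values that changed sign in leptin against saline were Il15ra ILMN_1227502 (-0.04 without leptin 8, and -0.12 to 0.17 leaving out 1 array), Il1r2 (0.04 by cyclic loess, 0.19 with the block, and -0.26 to 0.12), Il7r (-0.06 to 0.20), Il17rc ILMN_2695344 (-0.28 to 0.55), Il17rc ILMN_2785353 (-0.28 to 0.10) and Casp4 (-0.31 to 0.56). In STZ against saline they were Il27ra ILMN_2591156 (0.03 by cyclic loess, and -0.10 to 0.01 leaving out 1 array) and Il22ra1 (-0.05 with weights, -0.08 by median centring, -0.0034 with the block, -0.03 without STZ 1, and -0.05 to 0.11 leaving out 1 array). Arrays of different groups with the same number in their description correlated at -0.218 to 0.092 in their deviations from the group means. Deviations from means of 2 or 3 arrays must cancel within a group, so these values cannot decide whether the numbers pair samples. The fit with the replicate block is given as an alternative.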
